A study of Mus musculus with 8 samples.

Results

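Macrophages grown from the bone marrow of DNMT3A-HET and wild-type (WT) mice were compared after exposure to interleukin-6 (IL-6), using 4 of the 8 messenger RNA libraries of the study. The libraries were chosen by their labels alone: 2 labelled HET with IL-6 and 2 labelled WT with IL-6. Of 55376 genes in the deposited count table, 13721 passed the filter on low counts and were compared. All mice were male and 13 weeks old. Whole marrow was grown in medium holding 50 ng/mL of M-CSF, the last 2 days in the presence of 10 ng/mL of IL-6, and cells of every group were harvested on day 8. The other 4 libraries, 2 per genotype, had the same culture without IL-6 and are called control here. Per the labels 3 mice gave marrow for each genotype, with neither the allele behind DNMT3A-HET nor the mouse behind each library stated. The p-values below therefore reflect how far single libraries of a group lie apart, and that spread could be technical in part.

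DNMT3A is an enzyme that places new methyl groups on cytosines in DNA, and loss of a copy of its gene in blood-forming cells is a common lesion of clonal haematopoiesis. Macrophages are the phagocytes of tissues, and M-CSF, acting through the receptor encoded by Csf1r, drives their growth from marrow precursors. IL-6 signals through the IL-6 receptor and gp130 to the kinases JAK1, JAK2 and TYK2 and the transcription factor STAT3, and in macrophages it promotes receptors and enzymes of alternative activation.

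The libraries labelled WT held 24641277 and 18926641 counts and those labelled HET held 24365374 and 50137897, numbered 1 and 2 in that order throughout. Levels are given as CPM, counts scaled to a common library size with edgeR's trimmed mean of M values, and differences as log2 of HET over WT with the standard error of edgeR's quasi-likelihood fit. A gene is called where its Benjamini-Hochberg adjusted p, over all tested genes, is under 0.05. Defining macrophage genes were abundant in all 4 libraries: Adgre1, the gene of the F4/80 antigen, stood at 2434 and 2296 CPM in WT and 1865 and 1946 CPM in HET. Adgre1 was called lower in HET, by -0.31 ± 0.08 (adjusted p = 0.0141), and lost the call without WT number 1 (adjusted p = 0.121), HET number 1 (adjusted p = 0.123) or HET number 2 (adjusted p = 0.0762).

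Dnmt3a itself, on chromosome 12, was measured at 174 and 183 CPM in the WT and at 140 and 213 CPM in the HET libraries. The groups overlapped, with HET number 2 above both WT libraries, and the difference was -0.02 ± 0.25 (adjusted p = 0.972). With the allele not stated, the Dnmt3a counts cannot show whether a library is rightly labelled. The directions below therefore refer to the libraries labelled HET. An exchange of genotype labels between the libraries of an arm would turn every direction in that arm, and whether the labels are right was not tested. In control the levels were 275 and 243 CPM in WT and 166 and 248 CPM in HET, with a difference of -0.32 (adjusted p = 0.506). Of 18 tested genes of DNA methylation and demethylation, 2 were called higher and 1 lower, against 22% of all tested genes called in either direction. After offsets for GC content and length, explained in the next paragraph, the list held 1 higher and 4 lower calls. Mbd3, of the NuRD repressor complex, rose from 54.1 and 50.6 CPM to 82.3 and 81.2 CPM, or 0.64 ± 0.09 (adjusted p = 0.0003). Gadd45b, a stress-induced gene linked to demethylation, rose by 0.64 ± 0.11 (adjusted p = 0.00127). Hells, a remodelling factor needed for maintenance methylation, was at 54.7 and 44.0 CPM in WT against 32.7 and 33.7 CPM in HET, a difference of -0.57 ± 0.16 (adjusted p = 0.0238). The call of Hells was lost without WT number 1 (adjusted p = 0.275), HET number 1 (adjusted p = 0.0858) or HET number 2 (adjusted p = 0.0813). Dnmt1 and Uhrf1, the maintenance methyltransferase and its recruiting partner, differed by -0.05 and -0.08 (adjusted p = 0.677 and 0.514). With those offsets both were called lower, at -0.24 and -0.31 (adjusted p = 0.0132 and 0.00991), while Mbd3 and Gadd45b, at 0.11 and 0.29, were not called (adjusted p = 0.362 and 0.071).

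Among all tested genes 3021 (22%) were called, 1814 higher in HET (13.2%) and 1207 lower (8.8%). The 4 IL-6 libraries differed in how their levels followed the GC content of a gene's exons, and this difference ran with the genotype. Among the decile of genes lowest in GC, up to 41.0%, the median difference was -0.27, and 4 genes were called higher and 325 lower. Among the decile highest in GC, from 56.9%, the median was 0.43, with 676 called higher and 9 lower, so that 50.2% of that decile was called. Called higher genes had a median GC content of 55.8%, called lower genes 43.3% and uncalled genes 48.3%. Each library's deviation from the mean of the 8 libraries had a Pearson correlation with GC content, over 13651 genes of the same libraries, of -0.51 in WT number 1, -0.23 in WT number 2, 0.29 in HET number 1 and 0.35 in HET number 2. Both HET libraries therefore sloped one way and both WT libraries the other, and the trend cannot be told apart from the genotype with 2 libraries a side. Within a genotype, WT number 1 minus WT number 2 had a correlation of -0.34 with GC content, and HET number 1 minus HET number 2 one of -0.035. The trend with gene length was small, with a correlation of -0.07. A second fit, with smooth offsets for GC content and length in each library, brought the decile medians to between -0.01 and 0.03. In it 1617 genes (11.8%) were called, 809 higher (5.9%) and 808 lower (5.89%), where the fit without offsets had 60.05% of its calls higher. Of the first fit's calls, 627 higher and 490 lower genes kept call and direction. Counts of calls with these offsets are given for the groups below.

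**Figure D1:**
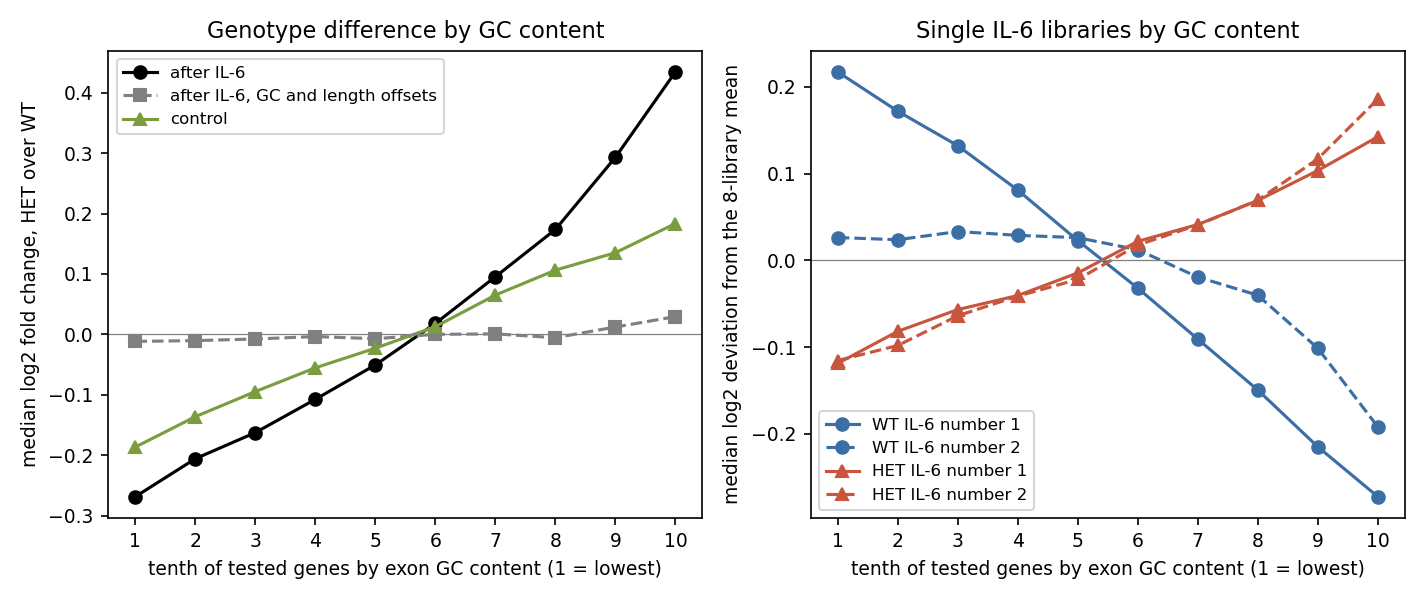
Left, median log2 difference of HET over WT in each decile of tested genes by exon GC content, after IL-6, after IL-6 with GC and length offsets, and in control. Right, median log2 deviation of each IL-6 library from the mean of the 8 libraries. The line after IL-6 climbs from -0.27 to 0.43 and lies near 0 with offsets, and the libraries labelled WT slope down where those labelled HET slope up.

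The 12 largest rises in the libraries labelled HET included Scd1 and Scd2 of fatty acid desaturation, Phgdh and Aldh1l2 of serine and folate metabolism, and the stress response genes Trib3 and Gdf15. Scd1, a desaturase that makes monounsaturated fatty acids (chr19:44394455-44407879, GRCm38), was at 5.70 and 7.82 CPM in WT against 52.8 and 32.5 CPM in HET, a rise of 2.66 ± 0.46 (adjusted p = 0.0173). Scd2, its neighbour and paralogue, was at 116 and 154 CPM in WT against 656 and 532 CPM in HET, a rise of 2.14 ± 0.24 (adjusted p = 0.00168). The groups did not overlap for either desaturase, which the rule that chose the largest rises required. Phgdh, which opens the serine synthesis pathway, rose from 8.84 and 13.6 CPM to 56.9 and 49.8 CPM, or 2.26 ± 0.32 (adjusted p = 0.00578). Aldh1l2, a mitochondrial folate enzyme, rose by 2.40 ± 0.26 (adjusted p = 0.000101), with 14.1% of its exon length shared with another gene and its value uncertain to that extent. Trib3, a pseudokinase induced by ATF4, was at 10.5 and 13.4 CPM in WT against 56.1 and 49.9 CPM in HET, a rise of 2.15 ± 0.20 (adjusted p = 0.00013). Gdf15, a secreted stress cytokine, was at 21.7 and 28.7 CPM in WT against 88.1 and 100.4 CPM in HET, a rise of 1.92 ± 0.14 (adjusted p = 1.79e-05). In control Gdf15 was at 75.8 and 78.7 CPM in WT against 74.0 and 94.7 CPM in HET, so the 2 WT IL-6 libraries were the low ones of the 8.

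The other 6 were Vegfa, Csf1, Trim46, Dpm3, Nckap5l and Myo1d. Vegfa, the angiogenic growth factor, was at 19.01 and 20.8 CPM in WT against 75.7 and 46.9 CPM in HET, a rise of 1.61 ± 0.23 (adjusted p = 0.00232). Csf1, which encodes M-CSF, was at 25.7 and 39.6 CPM in WT against 131 and 76.5 CPM in HET, a rise of 1.67 ± 0.36 (adjusted p = 0.033). The HET libraries differed between themselves for both factors, with number 1 the higher. Trim46 and Dpm3, low genes at 1.53 to 2.27 CPM in WT, rose by 1.70 and 1.59 (adjusted p = 0.00085 and 0.000324), Nckap5l by 1.67 (adjusted p = 0.000133) and Myo1d, an unconventional myosin, by 1.52 (adjusted p = 0.00746). Exons of Nckap5l share 10.7% of their length with another gene, which makes its value uncertain. With GC and length offsets 10 of the 12 largest rises kept the call, the exceptions being Csf1 and Myo1d (adjusted p = 0.0794 and 0.0598). Csf1 was also not called with no filter on low counts or in a fit on the IL-6 libraries alone. Scd1 lost the call without WT number 1 (adjusted p = 0.208) or number 2 (adjusted p = 0.078), Myo1d likewise (adjusted p = 0.213 and 0.0664), and Phgdh and Vegfa without number 1 (adjusted p = 0.0893 and 0.12). Csf1 kept it without either HET IL-6 library and lost it without any other single library, with adjusted p between 0.0656 and 0.243.

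The 12 largest falls included Cd207, Itgal, Cx3cr1 and Cd34, which encode surface molecules. Cd207 encodes langerin, a lectin of Langerhans cells, and lies at chr6:83671215-83677857 (GRCm38). It was at 8.22 and 4.39 CPM in WT against 0.497 and 0.668 CPM in HET, a difference of -3.39 ± 0.50 (adjusted p = 0.0015). Itgal, the alpha chain of the adhesion receptor LFA-1, was at 63.7 and 60.9 CPM in WT against 18.9 and 17.5 CPM in HET, a difference of -1.78 ± 0.27 (adjusted p = 0.00493). Cx3cr1, the fractalkine receptor, was at 99.2 and 78.9 CPM in WT against 30.03 and 24.8 CPM in HET, a difference of -1.71 ± 0.31 (adjusted p = 0.0163). The groups did not overlap in these genes, which the rule that chose the largest falls required. Cd34, a sialomucin of progenitors that marrow macrophage cultures also carry, was at 41.4 and 30.9 CPM in WT against 12.8 and 10.1 CPM in HET, a difference of -1.68 ± 0.21 (adjusted p = 0.000466). Olfml3, a secreted olfactomedin-like protein, fell by 2.10 on the log2 scale (adjusted p = 0.000873), Flt1, a VEGF receptor, by 1.56 (adjusted p = 0.000236) and Nptx1, a pentraxin, by 1.64 (adjusted p = 0.0134). Smaller falls were those of Pmepa1, a TGF-beta target (-1.32, adjusted p = 0.00808), the collagen Col14a1 (-1.30, adjusted p = 0.00253), the monocyte receptor Cd300e (-1.22, adjusted p = 0.000859), the kinase Dmpk (-1.12, adjusted p = 0.00287) and the integrin Itga8 (-1.10, adjusted p = 0.0105).

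With GC and length offsets 9 of these 12 falls kept the call, and Cx3cr1, Nptx1 and Itga8 did not (adjusted p = 0.0604, 0.0659 and 0.0819). Without WT number 1 the adjusted p was 0.117 for Itgal, 0.176 for Cx3cr1, 0.0522 for Nptx1, 0.137 for Pmepa1 and 0.175 for Itga8. Itgal was also lost without HET number 2 (adjusted p = 0.0528), Itga8 without WT number 2 (adjusted p = 0.0506), Cx3cr1 without any other single IL-6 library (adjusted p = 0.0519 to 0.087), and Nptx1 without either HET IL-6 library or either WT control library (adjusted p = 0.0583 to 0.0624). Cd207, Olfml3, Cd34, Flt1, Col14a1, Cd300e and Dmpk kept the call without each single library.

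**Figure D2:**
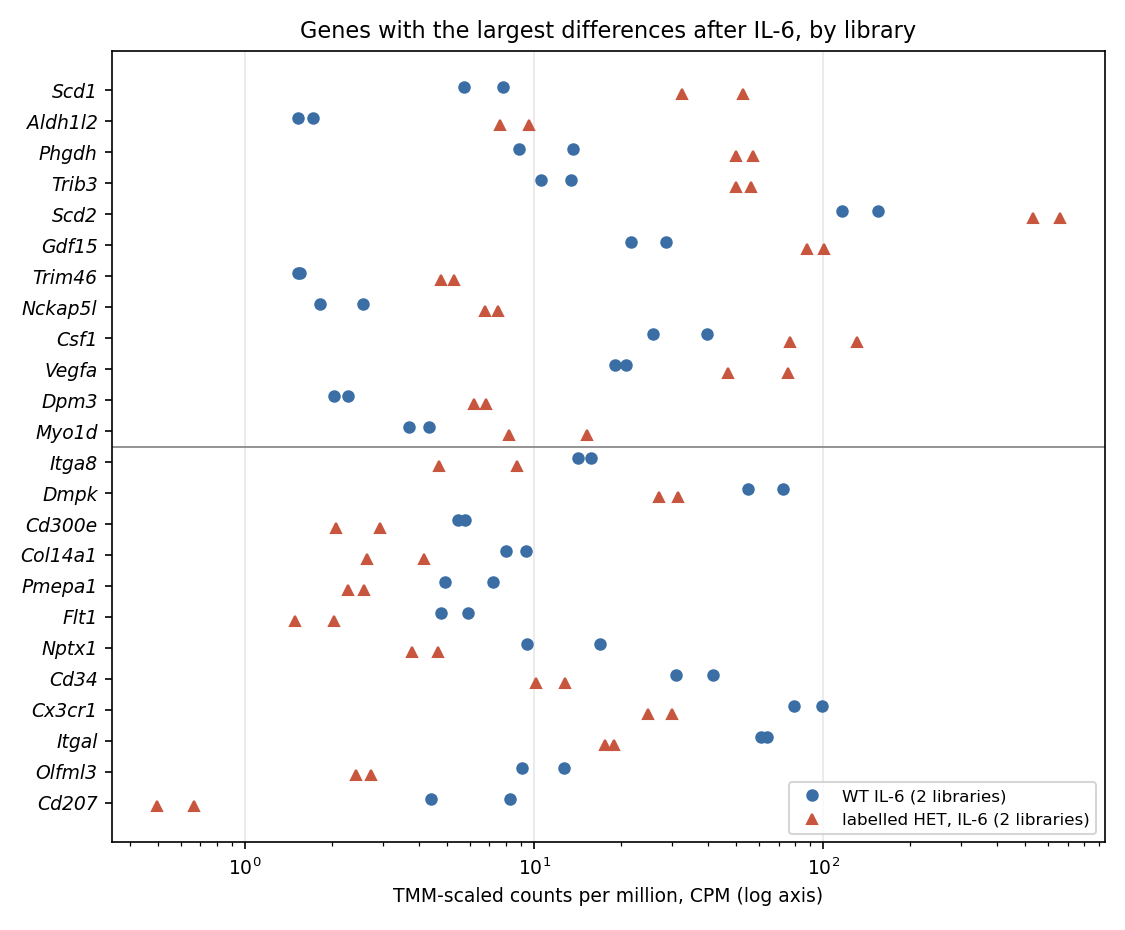
Level of the 12 genes with the largest called rise (above the line) and the 12 with the largest called fall (below it) in each IL-6 library, in CPM on a log axis. Circles are the 2 libraries labelled WT and triangles the 2 labelled HET. Only genes whose libraries do not overlap were eligible, which fixes that the groups lie apart, as for Cd207 at 4.39 and 8.22 in WT and 0.497 and 0.668 in HET.

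Markers of other cells were set beside these falls, and not all went one way. The 8 megakaryocyte markers summed to 240 and 251 CPM in WT and 356 and 380 CPM in HET, with 2 called higher in both fits. Most of these sums was Pf4, at 186 and 189 CPM in WT and 254 and 287 CPM in HET. Vwf followed, at 43.0 and 48.1 CPM in WT and 83.5 and 83.7 CPM in HET. Every other megakaryocyte marker was at or below 11.6 CPM in the 4 libraries, and none of them set the genotypes apart. The 11 B cell markers, mostly Ighm, summed to 4.55 and 6.91 CPM in WT and 13.2 and 13.5 CPM in HET. Of 8 tested progenitor markers, Kit was called higher (adjusted p = 0.0277) and Cd34 and Cd48 lower. Kit was a low gene, at 1.32 and 1.55 CPM in WT and 2.90 and 3.02 CPM in HET. With offsets Kit and Cd34 kept the call and Cd48 did not (-0.09, adjusted p = 0.326). Of 10 tested monocyte markers, 3 were called lower and none higher (median -0.49, and -0.31 with offsets, where none was called, against a median of -0.01 over all tested genes in the first fit), and the summed level of the 12 listed was 290 and 260 CPM in WT and 200 and 185 CPM in HET. Cx3cr1 is among the 12, and the other 11 summed to 191 and 181 CPM in WT and 170 and 160 CPM in HET. Ly6c2, the defining gene of classical monocytes, was at or below 0.321 CPM in all 4 libraries. Ccr2, the monocyte chemokine receptor, was at 69.7 and 53.2 CPM in WT against 35.0 and 43.1 CPM in HET, a difference of -0.65 ± 0.17 (adjusted p = 0.0229), and lost the call with offsets (adjusted p = 0.174) and without WT number 1 (adjusted p = 0.248), HET number 1 (adjusted p = 0.0977) or either WT control library (adjusted p = 0.0782 and 0.0779). The 3 monocyte calls numbered 0 without WT number 1 and 1 without HET number 2. The 12 markers of dendritic cells, Cd207 among them, summed to 205 and 209 CPM in WT and 250 and 266 CPM in HET. Bst2, which interferon also induces in other cells, made up most of that sum, and the other 11 markers summed to 14.1 and 9.10 CPM in WT and 7.04 and 6.46 CPM in HET. Of the 7 tested, Bst2 was called higher and Cd207 lower, with offsets only Cd207, and the call of Bst2 was lost without WT number 1 or either HET IL-6 library. The dendritic genes Flt3, Clec9a and Siglech were each at or below 0.166 CPM. The 12 macrophage markers summed to 19556 and 20817 CPM in WT and 19544 and 20066 CPM in HET, with 4 called higher and 3 lower, and 2 and 4 with offsets. They numbered 1 and 1 without WT number 1, without either HET IL-6 library 1 and none, and without WT number 2 or either HET control library 4 and 2. In bulk libraries fewer cells of a type and less RNA per cell cannot be told apart, and the part of other cells in these differences was not tested.

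Genes of sterol synthesis were higher in HET after IL-6. Cells make cholesterol from acetyl-CoA through mevalonate, and the transcription factor SREBP-2, encoded by Srebf2, raises the enzymes of that path when membrane sterol is low. Of 24 tested genes of sterol synthesis and uptake, 23 were called higher and none lower (median 0.71), with 22 called higher with offsets (median 0.72). All 24 lay with both HET libraries above both WT libraries, a placement seen in 32.7% of all tested genes. Mvk, mevalonate kinase, was at 10.4 and 11.4 CPM in WT against 26.0 and 27.1 CPM in HET, a rise of 1.29 ± 0.12 (adjusted p = 4.5e-05). Srebf2 was at 186 and 211 CPM in WT against 314 and 325 CPM in HET, a rise of 0.69 ± 0.09 (adjusted p = 0.000221). Replicates of a genotype lay close together in both genes, and the groups did not overlap. Leaving out single libraries, 20 to 23 members were called higher.

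Hmgcs1, which makes HMG-CoA from acetyl-CoA units, carries in its promoter window the core of the sterol regulatory element, the site that SREBP proteins bind. It was at 77.9 and 80.5 CPM in WT against 107 and 110 CPM in HET, a rise of 0.45 ± 0.09 (adjusted p = 0.00264), with 12.1% of its exons shared with another gene. The window is chr13:119690101-119690350 (GRCm38.p6, + strand, RefSeq), the 250 bases before the start site, and is shown since it was the only one of 17 sterol windows with a match, with none among 12 fatty acid genes. The capitals mark the match, which begins at -137:
Hmgcs1: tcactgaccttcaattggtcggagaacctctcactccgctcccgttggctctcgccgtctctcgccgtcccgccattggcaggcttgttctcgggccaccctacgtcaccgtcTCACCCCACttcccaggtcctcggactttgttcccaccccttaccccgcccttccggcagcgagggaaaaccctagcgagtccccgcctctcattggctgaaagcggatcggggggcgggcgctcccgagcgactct
The letters searched on both strands were TCACNCCAC, which 1.05% of 32851 RefSeq windows of the same length held. The counts for the lists are of genes, and of 9988 tested genes with a window 1.26% held the letters in any of their windows. A match describes these letters only.

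Fatty acid synthesis showed the same direction. Its regulator Srebf1, the gene of SREBP-1, was at 66.5 and 75.8 CPM in WT against 164 and 158 CPM in HET, a rise of 1.18 ± 0.10 (adjusted p = 2.85e-05). Of 15 tested genes 12 were called higher and none lower (median 0.57), and 11 with offsets (median 0.71). Fasn, fatty acid synthase, was at 146 and 170 CPM in WT against 354 and 358 CPM in HET, a rise of 1.17 ± 0.11 (adjusted p = 4.5e-05). Fads2, a desaturase of polyunsaturated fatty acids, rose by 1.43 (adjusted p = 0.000101), and Acss2, which makes acetyl-CoA from acetate, was at 4.96 and 5.57 CPM in WT against 15.99 and 13.9 CPM in HET (adjusted p = 0.000248). For cholesterol efflux and lipid handling 9 of 22 tested genes were called higher and 2, Lpl and Msr1, lower (5 and 2 with offsets). The sterol exporter Abcg1 was at 83.1 and 110 CPM in WT against 245 and 212 CPM in HET, a rise of 1.24 ± 0.17 (adjusted p = 0.00103). Its partner Abca1, at 229 and 310 CPM in WT and 439 and 449 CPM in HET, rose by 0.72 ± 0.13 (adjusted p = 0.0031), and was not called with offsets (0.79, adjusted p = 0.0598). The higher members of the efflux list numbered 4 without WT number 1 and 5 without HET number 1, and the lower ones 0 without either of these libraries, 1 without HET number 2 and 3 without WT number 2.

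**Figure D3:**
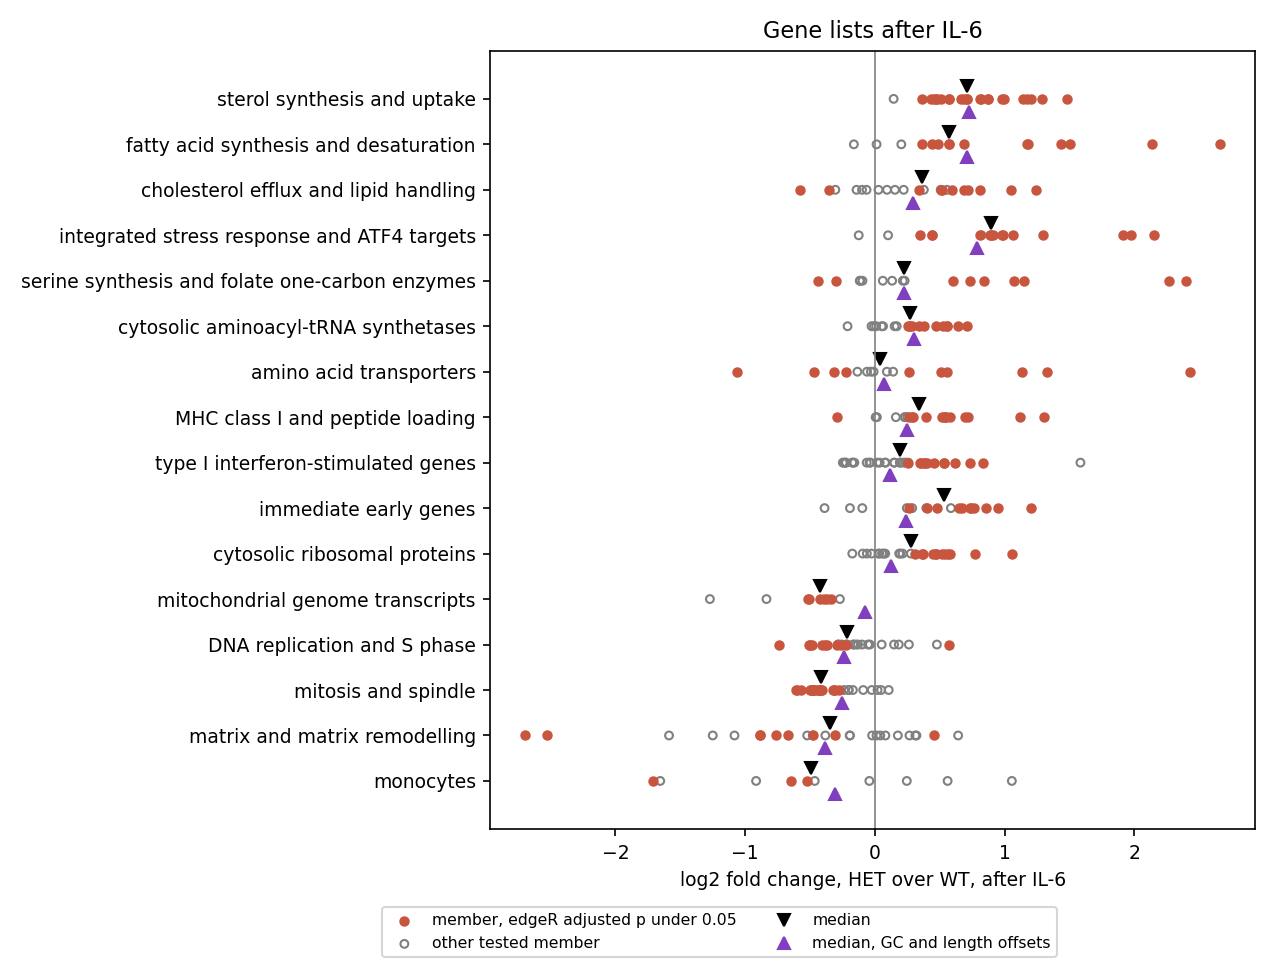
Log2 difference of HET over WT after IL-6 for each tested member of 16 gene lists. Filled points passed edgeR's quasi-likelihood test at an adjusted p under 0.05, black triangles are the list medians and purple triangles the medians with GC and length offsets. The sterol list has its median at 0.71 in the first fit and 0.72 with offsets, and the mitochondrial transcripts move from -0.42 to -0.08.

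Genes of the integrated stress response were higher in HET. In this response kinases that sense amino acid shortage or other stress phosphorylate eIF2-alpha, and the transcription factor ATF4 then induces genes of amino acid synthesis, uptake and tRNA charging. Of 17 tested ATF4 targets and response genes 14 were called higher and none lower (median 0.89), and 11 with offsets (median 0.79). Asns, asparagine synthetase, was at 57.1 and 62.7 CPM in WT against 131 and 120 CPM in HET, a rise of 1.06 ± 0.12 (adjusted p = 0.000105). Atf5, a related transcription factor, was at 18.6 and 24.0 CPM in WT against 43.6 and 40.0 CPM in HET, a rise of 0.98 ± 0.12 (adjusted p = 0.000167). Nupr1, a small stress-induced chromatin protein, was at 30.3 and 37.5 CPM in WT against 60.6 and 58.3 CPM in HET, a rise of 0.81 ± 0.16 (adjusted p = 0.00371), which lost the call without WT number 1 (adjusted p = 0.0815). The members called higher numbered 8 without that library and 11 without either HET IL-6 library.

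Enzymes that supply and charge amino acids shared the direction in part. Of 16 tested genes of serine synthesis and folate one-carbon metabolism 7 were called higher and 2, Mat2a among them, lower (8 and 1 with offsets). Shmt2, the mitochondrial serine hydroxymethyltransferase, was at 60.5 and 60.4 CPM in WT against 130 and 138 CPM in HET, a rise of 1.15 ± 0.09 (adjusted p = 2.79e-05). Neither lower call was kept without WT number 1 or without either HET IL-6 library. Of 16 amino acid transporters 6 were higher and 4, Slc7a2, Slc7a6, Slc7a8 and Slc36a4, lower, with the same counts under offsets and 5 and 3 called in both fits. Slc7a5, the large neutral amino acid exchanger, rose by 1.14 ± 0.11 (adjusted p = 5.3e-05), and Slc1a4, a carrier of alanine and serine, by 1.33 ± 0.15 (adjusted p = 0.00013). The 4 lower calls numbered 2 without WT number 1, HET number 1 or either HET control library, and 1 without HET number 2.

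Of 20 cytosolic aminoacyl-tRNA synthetases, which load amino acids onto tRNAs, 12 were called higher and none lower (median 0.27), and with offsets 12 were called higher (median 0.30), 10 of them in both fits. Sars, the seryl enzyme, was at 164 and 199 CPM in WT against 304 and 290 CPM in HET, a rise of 0.71 ± 0.12 (adjusted p = 0.00148). Aars, the alanyl enzyme, was at 271 and 305 CPM in WT against 453 and 446 CPM in HET, a rise of 0.64 ± 0.10 (adjusted p = 0.000883), with 15.1% of its exons shared with another gene. Gars, the glycyl enzyme, was at 160 and 162 CPM in WT against 210 and 198 CPM in HET, a rise of 0.34 ± 0.08 (adjusted p = 0.00899). The HET libraries were above both WT libraries in each of these genes. Vars, the valyl enzyme, rose by 0.56 (adjusted p = 0.000492) and was not called with offsets (0.11, adjusted p = 0.254). Gars lost the call without WT number 1 (adjusted p = 0.0577), HET number 1 (adjusted p = 0.118) or HET number 2 (adjusted p = 0.0598), and the members called higher numbered 6 without any of those 3 libraries in turn.

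The core of the C/EBP-ATF response element, the composite site that ATF4 binds, was found in the promoter windows of 1 of 15 stress response genes and 2 of 12 synthetases with a window, and in none of 12 serine and folate enzymes or 12 amino acid transporters. These 3 windows of 250 bases before the start site (GRCm38.p6, RefSeq) are printed to show where the letters lie: chr7:126625471-126625720 on the - strand for Nupr1, chr8:111033592-111033841 on the + strand for Aars, and chr6:55037751-55038000 on the + strand for Gars. Capitals mark the match, which begins at -111, -113 and -31:
Nupr1: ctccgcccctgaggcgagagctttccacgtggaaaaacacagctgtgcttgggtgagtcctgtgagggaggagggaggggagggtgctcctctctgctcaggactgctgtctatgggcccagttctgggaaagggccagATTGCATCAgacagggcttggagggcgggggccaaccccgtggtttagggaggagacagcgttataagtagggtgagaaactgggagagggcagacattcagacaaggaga
Aars: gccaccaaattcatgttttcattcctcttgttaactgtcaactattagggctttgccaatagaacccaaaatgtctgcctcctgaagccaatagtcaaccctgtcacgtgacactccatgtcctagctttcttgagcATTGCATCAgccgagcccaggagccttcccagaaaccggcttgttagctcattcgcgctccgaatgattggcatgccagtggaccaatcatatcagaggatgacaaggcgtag
Gars: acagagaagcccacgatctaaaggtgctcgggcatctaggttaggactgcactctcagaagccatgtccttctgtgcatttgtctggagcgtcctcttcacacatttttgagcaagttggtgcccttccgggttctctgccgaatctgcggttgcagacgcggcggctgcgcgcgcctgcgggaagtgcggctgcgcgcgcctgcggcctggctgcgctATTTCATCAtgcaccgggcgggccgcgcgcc
The letters searched on both strands were TGATGNAAT, and the capitals are its reverse complement ATTNCATCA. Of all 32851 RefSeq windows 0.816% held it. Counted by gene, as for the lists, 0.521% of 9988 tested genes with a window held it in any of their windows.

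Genes of cell division were lower in HET. Of 28 tested genes of mitosis and the spindle 19 were called lower and none higher (median -0.41), and 16 with offsets (median -0.26). Nuf2, of the kinetochore, was at 69.3 and 61.5 CPM in WT against 43.1 and 43.3 CPM in HET, a difference of -0.60 ± 0.11 (adjusted p = 0.00181). Ccnb1, the mitotic cyclin B1, was at 131 and 119 CPM in WT against 90.1 and 89.7 CPM in HET, a difference of -0.48 ± 0.09 (adjusted p = 0.00185). The HET libraries were nearly equal to each other and below both WT libraries in both genes. In 23 of the 28 mitotic genes both HET libraries lay below both WT libraries, as in 32.3% of all tested genes. The lower mitotic genes numbered 5 without WT number 1, 12 without HET number 1 and 6 without HET number 2. Of 28 genes of DNA replication and S phase 10 were called lower and 1, the polymerase gene Pold1, higher. Rrm1, the large subunit of ribonucleotide reductase, was at 326 and 284 CPM in WT against 214 and 215 CPM in HET, a difference of -0.51 ± 0.09 (adjusted p = 0.00244). Pold1 was at 36.7 and 33.6 CPM in WT against 51.3 and 53.0 CPM in HET, a rise of 0.57 (adjusted p = 0.000737) that was not called with offsets (0.11, adjusted p = 0.371), where 16 of the 28 were lower and none higher. The lower replication genes numbered 2 without WT number 1, 4 without HET number 1 and 2 without HET number 2.

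**Figure D4:**
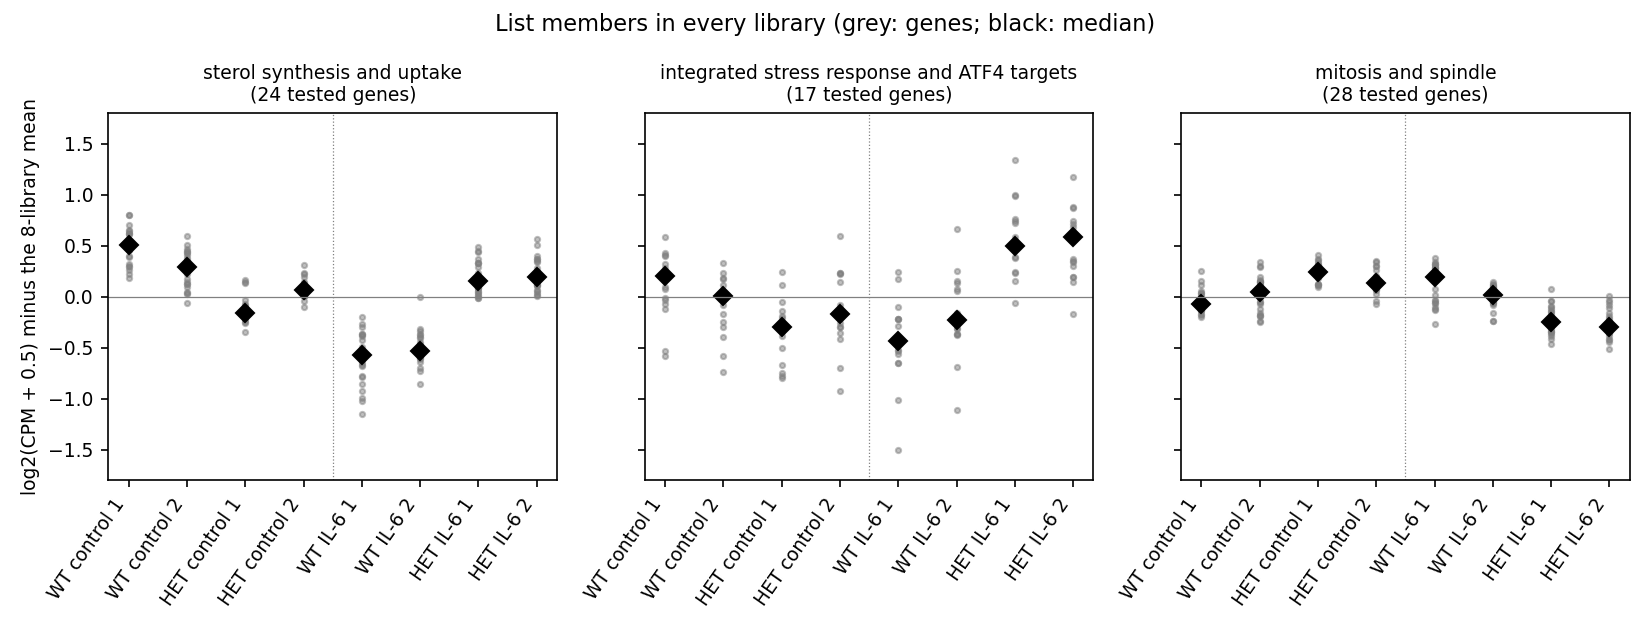
Level of each tested member of 3 lists in all 8 libraries, as log2(CPM + 0.5) minus the gene's mean over the libraries, with grey points for genes and black diamonds for list medians. The sterol medians are -0.58 and -0.53 in the WT IL-6 libraries and 0.15 and 0.19 in the HET IL-6 libraries, the stress response medians -0.44 and -0.23 against 0.49 and 0.59, and the mitotic medians 0.20 and 0.01 against -0.25 and -0.30.

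Genes of the IL-6 receptor and STAT3 path had a median that changed sign with offsets. Of 24 tested genes 7 were called higher and 1 lower (median 0.15), or 33.3%, against 22% of all tested genes called. With offsets 3 were called higher and 1 lower (median -0.06), where 11.8% of all tested genes were called. Junb, an AP-1 factor and STAT3 target, was at 130 and 116 CPM in WT against 243 and 324 CPM in HET, a rise of 1.21 ± 0.17 (adjusted p = 0.00126), not called with offsets (0.68, adjusted p = 0.149) or without WT number 1 (adjusted p = 0.062). Socs3, the inhibitor that STAT3 induces, was at 181 and 208 CPM in WT against 242 and 262 CPM in HET, a rise of 0.38 ± 0.09 (adjusted p = 0.0106). With offsets the value of Socs3 turned to -0.04 (adjusted p = 0.76), and the call was lost without WT number 1 (adjusted p = 0.129) or HET number 2 (adjusted p = 0.15). The lower gene was the kinase Jak2, at 76.9 and 65.4 CPM in WT and 55.5 and 57.9 CPM in HET, a difference of -0.33 ± 0.10 (adjusted p = 0.0312). Jak2 was not called with offsets (adjusted p = 0.109), without WT number 1, either HET IL-6 library or either HET control library (adjusted p = 0.0526 to 0.323). The 7 higher genes numbered 1 without WT number 1 or without HET number 2, and 5 without WT number 2, HET number 1 or either HET control library taken alone.

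The list of inflammatory cytokine and inflammasome genes stood near the background, with 23.8% called against 22% of all tested genes. Of its 21 tested genes 4, Il6, Tgfb1, Osm and Gsdmd, were called higher and 1, Il1a, lower (median 0.01), and with offsets 3 and none. They numbered 2 and none without WT number 1 or HET number 1, without HET number 2 they numbered 4 and none, and without WT number 2 or either WT control library 2 were lower. Il6 transcripts were scarce in all libraries and higher in HET, at 0.620 and 0.696 CPM in WT and 4.80 and 2.31 CPM in HET, a rise of 2.39 ± 0.38 (adjusted p = 0.000968) that kept its call with offsets (2.62, adjusted p = 0.00095). The exogenous cytokine is protein and adds no transcript. Tgfb1, the gene of TGF-beta, was at 156 and 176 CPM in WT against 235 and 241 CPM in HET, a rise of 0.52 ± 0.08 (adjusted p = 0.000883). Of 18 chemokines 7 were called higher and 1, Cxcl14, lower (5 and 2 with offsets). Ccl8, a monocyte attractant, was at 10.4 and 14.5 CPM in WT against 26.9 and 21.9 CPM in HET, a rise of 0.97 ± 0.16 (adjusted p = 0.000948). Ccl6, a chemokine of macrophages, rose by 0.53 (adjusted p = 0.00168). Without WT number 1 or HET number 1 the higher chemokines numbered 3, and without HET number 2 or either HET control library 4, while 5 were lower without either WT control library.

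Immediate early genes, which respond within minutes to stimulation or to handling, were higher in 11 of 18 tested and lower in none (median 0.53), and in 4 with offsets (median 0.24). Ier3 was at 36.9 and 43.2 CPM in WT against 79.6 and 74.5 CPM in HET, a rise of 0.95 ± 0.12 (adjusted p = 0.000278). Klf4, a transcription factor of monocyte and macrophage differentiation, rose by 0.76 (adjusted p = 0.000528). Both kept the call with offsets, at 0.75 and 0.50 (adjusted p = 0.00273 and 0.0383). The higher members numbered 6 without WT number 1 and 7 without HET number 1. Mt1, a metallothionein that binds zinc and copper, was at 54.7 and 46.4 CPM in WT against 94.3 and 99.4 CPM in HET, a rise of 0.94 ± 0.09 (adjusted p = 7.04e-05).

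Transcripts of MHC class I genes were mostly higher in HET. Of 20 tested genes of MHC class I and peptide loading 13 were called higher and 1, the trimming peptidase Erap1, lower (median 0.34), and 9 and none with offsets (median 0.25). H2-K1, a classical class I heavy chain with near-identical relatives that can share reads, was at 769 and 852 CPM in WT against 1210 and 1205 CPM in HET, a rise of 0.58 ± 0.10 (adjusted p = 0.00125). Psmb10, an immunoproteasome subunit, was at 50.4 and 48.0 CPM in WT against 79.9 and 82.1 CPM in HET, a rise of 0.72 ± 0.08 (adjusted p = 0.000133). Tap1, of the peptide transporter, rose by 0.53 (adjusted p = 0.000528). Without WT number 1 the higher members numbered 6, and without HET number 1 they numbered 8.

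Of 34 type I interferon-stimulated genes 12 were called higher and none lower (median 0.19), or 35.3%, against 22% of all tested genes called. With offsets 5 were called higher (median 0.11), where 11.8% of all tested genes were called. Oasl1, an antiviral regulator, was at 20.001 and 20.2 CPM in WT against 40.3 and 32.0 CPM in HET, a rise of 0.84 ± 0.14 (adjusted p = 0.00107) that was also called with offsets (0.56, adjusted p = 0.019). Irf7, a transcription factor of the interferon response, was at 141 and 121 CPM in WT against 210 and 193 CPM in HET, a rise of 0.62 ± 0.11 (adjusted p = 0.00194), not called with offsets (0.37, adjusted p = 0.109). The higher members numbered 5 without WT number 1, 3 without HET number 1 and 6 without HET number 2.

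Complement genes split. Of 11 tested, 6 were called higher and 4, Itgax, Cr1l and Itgam among them, lower, and with offsets 3 and 2. C1qc, a chain of the C1q recognition molecule, was at 758 and 745 CPM in WT against 1111 and 1126 CPM in HET, a rise of 0.57 ± 0.07 (adjusted p = 0.000253), and C1qa, another chain, rose by 0.48 (adjusted p = 0.00115). With offsets C1qc kept the call at 0.28 (adjusted p = 0.0067) and C1qa did not, at 0.08 (adjusted p = 0.375). Cfp, properdin, rose by 0.66 (adjusted p = 0.000777), and C3, the central component, by 0.73 (adjusted p = 0.00126). Without WT number 1 the complement calls numbered 4 higher and none lower, and without HET number 1 they numbered 4 and 1, and without HET number 2 they numbered 5 and none. Of 19 tested Fc receptors and efferocytosis genes 4, Fcgr2b, Mertk, Gas6 and Stab1, were called higher and 4, Havcr2, Itgav and Cd300e among them, lower (median -0.01), and with offsets 2 and 5. The higher calls of that list numbered 0 without WT number 1 or HET number 2 and 1 without HET number 1, and the lower ones 3 or 4. Havcr2, the inhibitory receptor TIM-3, was at 66.1 and 46.5 CPM in WT against 26.1 and 27.9 CPM in HET, a difference of -1.06 ± 0.14 (adjusted p = 0.000289). Itgav, the alpha-v integrin used in uptake of dying cells, fell by 0.62 on the log2 scale (adjusted p = 0.00147).

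Of 26 tested matrix and matrix-remodelling genes 8 were called lower and 1, Adam15, higher (median -0.34), and 9 and none with offsets (median -0.39). Mmp13, a collagenase, was at 82.2 and 72.5 CPM in WT against 41.3 and 49.6 CPM in HET, a difference of -0.76 ± 0.11 (adjusted p = 0.000426). Col4a1, a basement membrane collagen, fell by 0.67 on the log2 scale (adjusted p = 0.00546), and lost the call without WT number 1 (adjusted p = 0.0866). The lower members numbered 3 without WT number 1, 5 without HET number 1 and 4 without HET number 2. The 10 markers of stromal cells and fibroblasts, 4 of them tested, summed to 18.3 and 7.71 CPM in WT and 7.37 and 4.17 CPM in HET, and Lum was at 0 in all 4 libraries. Of the 4 tested, Acta2 and Pdgfrb were called lower in both fits. Neither was called without WT number 1 or HET number 2, and 1 was without HET number 1 or either HET control library. Acta2 was at 5.74 and 1.77 CPM in WT against 1.16 and 0.992 CPM in HET, with WT number 1 apart from the rest, and the part of such cells in the matrix calls was not tested.

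Among ribosomal protein genes the calls were mostly higher in HET, and among mitochondrial genome transcripts they were lower, most of the latter in the first fit alone. Of 25 cytosolic ribosomal protein genes, a family with many processed copies that can share reads, 12 were called higher and none lower, and with offsets 8 higher and 1 lower. Rplp1 was at 227 and 185 CPM in WT against 398 and 460 CPM in HET, a rise of 1.06 ± 0.11 (adjusted p = 8.08e-05), and with offsets it was not called (0.76, adjusted p = 0.0553). Rps15, a gene of 61.0% GC, rose by 0.58 (adjusted p = 0.000363), with 0.16 under offsets (adjusted p = 0.111). Of 9 tested mitochondrial genome transcripts 6 were called lower and none higher (median -0.42), and 1 with offsets (median -0.08). mt-Nd5, of 37.1% GC, was at 1778 and 1517 CPM in WT against 1117 and 1192 CPM in HET, a difference of -0.51 ± 0.12 (adjusted p = 0.0106), and kept the call with offsets at -0.21 (adjusted p = 0.0335). Without WT number 1, HET number 1 or HET number 2, each in turn, none of the mitochondrial transcripts was called, and mt-Nd5 had an adjusted p of 0.139, 0.0853 and 0.0508. Of 19 endoplasmic reticulum chaperones 5 were lower and 2, Herpud1 and Syvn1, higher, and with offsets 5 were lower and none higher. No chaperone was called higher without WT number 1 or HET number 1, and 1 was without HET number 2. None was called lower without WT number 1, HET number 1 or HET number 2, and 7 or 8 were lower without WT number 2 or either WT control library.

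The genotype contrast after IL-6 was then set beside the same contrast in control, which shares no library with it. In control 666 genes (4.85%) were called, 385 higher in HET (2.81%) and 281 lower (2.05%). With GC and length offsets 712 were called in control, 395 higher and 317 lower. Of the 666, 402 kept call and direction. A test of the difference between the 2 contrasts called 1114 genes (8.12%), 620 with a higher value after IL-6 (4.52%) and 494 with a lower one (3.6%). With offsets the balance turned, with 774 higher and 966 lower among 1740 calls. The overlaps of the arms that follow were counted only in the fit without offsets. Of genes called in both arms, 110 were higher in both, 19 lower in both, 60 (0.437% of all tested) higher after IL-6 and lower in control, and 57 (0.415%) lower after IL-6 and higher in control. All 117 with opposite directions were also called for the difference, an outcome that choosing genes by opposite calls all but fixes. The 110 make 6.06% of the genes higher after IL-6 and 28.6% of those higher in control.

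Most of the large differences called in both arms lay in opposite directions, and each direction rests on the genotype labels of its arm. Of 19 genes called with more than 2-fold in both, 15 (0.109% of all tested) had opposite directions and 4 (0.0292%) the same. Cd207 in control was at 0.478 and 1.32 CPM in WT against 7.21 and 3.39 CPM in HET, a rise of 2.57 (adjusted p = 0.023), so that the high libraries were those labelled WT with IL-6 and HET without. Scd2 in control was at 679 and 471 CPM in WT against 194 and 255 CPM in HET, a difference of -1.36 (adjusted p = 0.0291), so that the high libraries were those labelled HET with IL-6 and WT without. Itgal, Olfml3 and Dmpk had the pattern of Cd207, with control values of 1.53, 2.04 and 1.44 (adjusted p = 0.0309, 0.00485 and 0.00509). Aldh1l2 had the pattern of Scd2, with -1.72 (adjusted p = 0.00348). The 4 genes with the same direction, lower in both arms, were Tnc, Col12a1, Thbs2 and Bgn, matrix genes named here after their values were seen. Each was below 5 CPM in every library, and Thbs2 was at 0 in both HET control libraries. The stromal markers summed to 4.86 and 11.2 CPM in WT control and 3.32 and 1.92 CPM in HET control. The part of stromal cells in these 4 genes was not tested. Tnc, tenascin C, was at 3.06 and 2.95 CPM in WT and 1.04 and 0.283 CPM in HET after IL-6, and at 1.31 and 1.23 CPM in WT and 0.393 and 0.251 CPM in HET in control.

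The lists differed between the arms as well. Of the 24 sterol genes 14 were called lower in control and none higher (median -0.42), and 23 were called for the difference (median 1.21). Hmgcs1 in control was at 133 and 131 CPM in WT against 84.0 and 97.9 CPM in HET, a difference of -0.53 (adjusted p = 0.00485). Of the 15 fatty acid genes 5 were lower in control and none higher, among them Fads2 (-0.67, adjusted p = 0.0188) and Acss2 (-1.10, adjusted p = 0.00424). Of the 17 stress response genes 2 were lower in control, Asns (-0.89, adjusted p = 0.00208) and Atf5 (-0.86, adjusted p = 0.00348). Of the mitotic genes 5 of 28 and of the replication genes 10 of 28 were higher in control, with none lower, and 22 and 16 were called for the difference. The control contrast had a GC trend of the same sign, with a Pearson correlation of 0.30 over genes against 0.48 after IL-6.

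**Figure D5:**
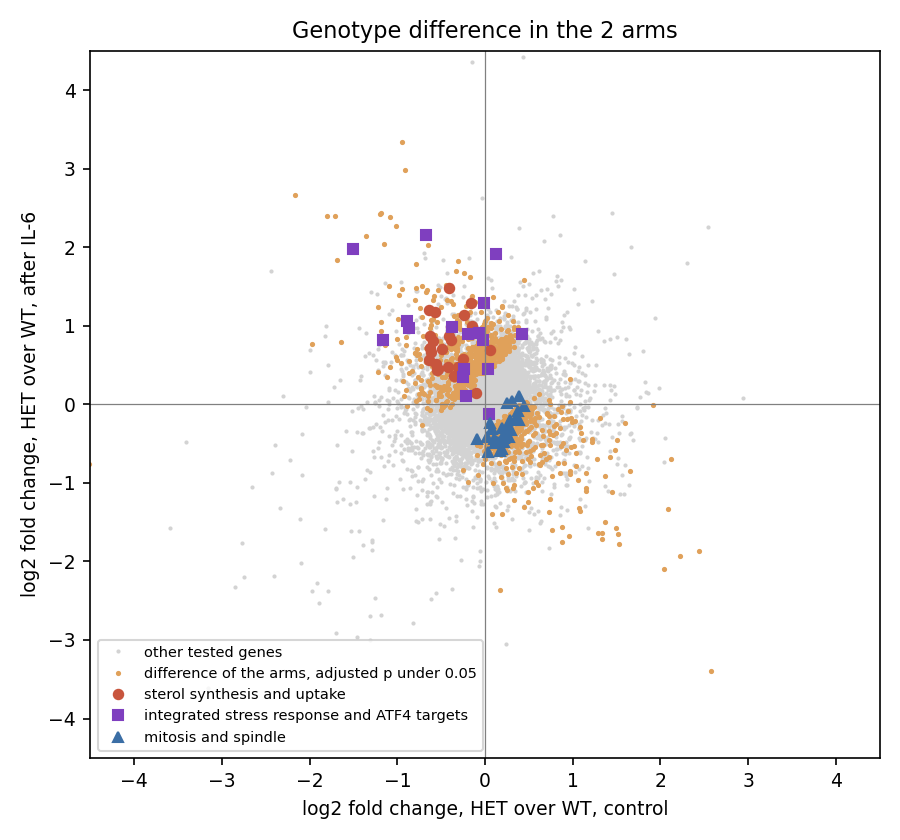
Log2 difference of HET over WT in control (horizontal) and after IL-6 (vertical) for the tested genes, with 5 of 13721 outside the plotted range. Orange points passed the test of the difference between the contrasts. Sterol genes (red) and stress response genes (purple) lie mostly in the upper left, higher after IL-6 and lower in control, and mitotic genes (blue) mostly in the lower right.

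Of the 110 genes higher and 19 lower in both arms, 4 are described here. Amz1, a metallopeptidase, was at 11.5 and 11.2 CPM in WT against 23.2 and 20.5 CPM in HET after IL-6, a rise of 0.94 (adjusted p = 0.000547), and rose by 0.78 in control (adjusted p = 0.011). Reps2, an endocytic adaptor, was at 72.4 and 64.3 CPM in WT against 49.5 and 52.7 CPM in HET after IL-6, a difference of -0.42 (adjusted p = 0.00804), and differed by -0.54 in control (adjusted p = 0.00774). Reps2 after IL-6 lost the call without WT number 1 (adjusted p = 0.0978) or HET number 1 (adjusted p = 0.0766). C3 and Mbd3 were also higher in control, by 0.50 and 0.33 (adjusted p = 0.0336 and 0.0407). The difference between the contrasts was not called in any of these 4 genes (adjusted p from 0.143 to 0.693).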

How the data were processed

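Poly(A) RNA was sequenced from 8 libraries made with a stranded kit, per the labels' protocols. Per the submitters' processing notes, reads were handled with fastp 0.12.4, STAR 2.7.9a, SAMtools 1.9 and featureCounts 1.6.2 on mm10. The authors deposited raw read counts per gene. Neither the annotation used for counting nor its strand option was given in these sources, so reads of overlapping genes may be split, and values are called uncertain where over 10% of exon length is shared. Spreadsheet dates stood in place of 26 symbols, and 25 could be restored from their coordinates, while 99.45% of genes matched GENCODE M21 (GRCm38), which gave GC content and length (99.5% of tested genes).

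Counts were filtered with edgeR 4.0.16 (filterByExpr, minimum count 10) and fitted in R 4.3.3 with trimmed mean of M values scaling and the robust quasi-likelihood test on 4 group means over all 8 libraries, leaving 4 residual degrees of freedom. The contrasts were HET against WT after IL-6, the same in control, and their difference, with Benjamini-Hochberg adjustment over 13721 genes. A second fit used per-library offsets smoothed over GC content and length (mgcv 1.9.3). DESeq2 1.42.0, other scalings and filters, fits on the compared libraries alone, a replicate block and leaving out libraries were alternatives. The procedure was tested on simulated counts with known changes. Without a GC trend the fit without offsets made 9 false calls, 4.46% of its calls. With a GC trend set by hand in the WT IL-6 libraries it made 183, or 49.3% of its calls. The fit with GC and length offsets then made 11 false calls, or 5.5%. The simulated trend followed GC content alone, which the offsets are built to remove, and the known changes were placed without regard to GC content. The simulation therefore cannot show whether the offsets also remove genotype differences that run with GC content. Total counts were 18926641 to 50137897 per library, and no library repeated another: replicates differed by chi-square values per gene of 6.75 (HET IL-6) and 13.3 (WT IL-6).

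The genes named are Dnmt3a and its pathway list, the 12 largest called rises and falls with at least 5 CPM in a group mean and no overlap of libraries, up to 4 members of smallest p per list, and the leading genes of the difference and of both arms. A few genes that the rule or a list names are not reported here. Named genes and lists were chosen with earlier results of these data known. Lists carry no test and are read against the share of all genes called.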

Additional observations from a re-analysis of the deposited data

Results flagged for a closer look

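The test of the difference between the genotype contrasts after IL-6 and in control picked out 62 of the 83 genes described in the report. Of all tested genes it called 8.12%. The 83 were named largely by the contrast after IL-6, which enters the difference, and in part by this test. Their count therefore follows in part from the naming. Each value is the log2 contrast after IL-6 minus that in control, and edgeR's quasi-likelihood adjusted p was under 0.05 for each. Among the genes of fatty acid synthesis it was higher after IL-6 for Scd1 (4.83), Scd2 (3.49), Fads2 (2.10), Acss2 (2.60), Srebf1 (1.22) and Fasn (1.34). Sterol genes with a higher contrast were Mvk (1.45), Hmgcs1 (0.99) and Srebf2 (0.63), and the exporters were Abcg1 (1.74) and Abca1 (1.39). For folate and serine enzymes the values were those of Aldh1l2 (4.11), Phgdh (3.28) and Shmt2 (1.35), and for the stress response those of Trib3 (2.82), Gdf15 (1.79), Asns (1.95), Atf5 (1.84) and Nupr1 (0.84). Transporters and synthetases followed with Slc7a5 (1.44), Slc1a4 (2.13), Sars (1.07), Aars (0.81) and Gars (0.58). Secreted factors in the set were Il6 (3.47), Vegfa (1.79) and Ccl6 (1.09), complement genes Cfp (0.66) and C1qc (0.38), genes of antigen presentation and interferon response H2-K1 (0.63), Psmb10 (0.47), Tap1 (0.42), Oasl1 (0.66) and Irf7 (0.56). The remaining higher contrasts were those of Ier3 (1.18), Klf4 (1.11), Mt1 (0.92), Rplp1 (0.74), Trim46 (2.03), Nckap5l (1.92), Myo1d (1.97) and Dpm3 (1.14).

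Contrasts lower after IL-6 than in control were led by Cd207 (-5.96), Olfml3 (-4.14), Itgal (-3.30), Cx3cr1 (-3.05) and Nptx1 (-2.97). Other surface and signalling genes of this kind were Cd34 (-2.63), Flt1 (-2.45), Dmpk (-2.57), Pmepa1 (-2.39), Itga8 (-2.25), Cd300e (-1.55), Havcr2 (-1.31) and Itgav (-0.77). Matrix genes were Col4a1 (-2.09), Col14a1 (-1.75) and Mmp13 (-0.74), and genes of division and methylation upkeep Rrm1 (-0.74), Nuf2 (-0.77), Ccnb1 (-0.69) and Uhrf1 (-0.56). The control libraries enter each of these values, and the 4 groups hold 2 libraries each, too few to look for single libraries that stand apart.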

How the results depend on the processing

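Of 1826 values of the 83 named genes under 22 alternatives, 1681 kept direction and side of the threshold, 131 lost the call, 6 gained it and 8 changed sign. Of 484 list medians 416 moved by less than a yardstick, 54 moved more and 14 changed sign. The yardstick was the standard deviation of a list's median difference over the pairs of a HET and a WT IL-6 library. These pairs share libraries and are not independent. Where an arm is left with 1 library, that library is assumed to vary like the others. For the calls after IL-6 (3021, 1814 higher and 1207 lower), GC and length offsets gave 1617 (809 higher), GC offsets alone 1585 (795 and 790), and leaving out single libraries 879 to 4000 (698 to 2212 higher, 157 to 1796 lower). The lowest count, 879, was without WT IL-6 number 1. The HET IL-6 libraries gave 1145 when number 1 was left out and 912 when number 2 was. Alternatives chosen after seeing the data left out both HET libraries of a number: 1042 (827 and 215) without number 1 and 862 (673 and 189) without number 2. Labels do not say that a number joins WT and HET, and same-numbered deviations of the IL-6 groups had a correlation of 0.02. With the replicate block 2288 genes were called (1502 higher, 786 lower), and 1496 (768 and 728) with the block and offsets. In control (666) the count was 1078 with no filter, 437 on the compared libraries only, 339 with the replicate block, 33 to 1304 leaving out single libraries, and 79 and 203 without both HET libraries number 1 and 2. For the difference (1114) it was 1740 with offsets, 1731 with GC offsets, 732 with the replicate block, 1674 with the block and offsets, 304 to 2124 leaving out single libraries, and 188 and 428 without both HET libraries number 1 and 2. The cause of these shifts was not tested.

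Values that changed sign were those of Dnmt3a, at 0.0075 with no filter, 0.11 with length offsets, -0.37 to 0.24 leaving out single libraries and 0.26 without both HET libraries number 1, and of Socs3, at -0.0403 with offsets, -0.033 with GC offsets and -0.0408 with the replicate block and offsets. The median of amino acid transporters ran from -0.0057 to 0.0877 leaving out single libraries. The IL-6 and STAT3 list went to -0.0598 with offsets, -0.0616 with GC offsets and -0.0599 with the replicate block and offsets, and the macrophage markers to -0.0414, -0.044 and -0.0414. The DNA methylation list went to 0.043 with offsets, 0.0502 with GC offsets, 0.059 with length offsets, 0.0458 with the replicate block and offsets, -0.0678 to 0.0589 leaving out single libraries and 0.0756 without both HET libraries number 1.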
